A study of Arabidopsis thaliana with 2 samples.

Results

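Genes for metabolic and other enzymes were described among the genes next to binding sites of LEAFY (LFY), the transcription factor that starts flower formation in Arabidopsis thaliana. A gene belonged to the group when it was the nearest gene of a peak and its deposited description held an enzyme word (synthase, oxidase, transferase, dehydrogenase, hydrolase, reductase, esterase, lyase, glucosidase or cytochrome P450) without kinase or hypothetical. The rule left out 9 further loci by name, all of sucrose, trehalose, gibberellin, cytokinin and flavonol metabolism. This gave 44 loci with 45 peaks, out of 512 loci and 529 peaks in all (8.51% of the peaks). Beyond the need for a called peak with that gene as its nearest, the rule used neither score nor position. It was set with earlier results of these data known. Of the 44 loci, 7 encode enzymes that act on proteins, chromatin or RNA rather than on metabolites, so the name metabolic covers the other 37 at most.

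The study used chromatin immunoprecipitation and sequencing (ChIP-seq), which sequences the DNA bound by a protein. The 1 immunoprecipitated library, for which the antibodies were a rabbit antiserum to LFY, was set beside 1 input library that saw no antibody. Both came from inflorescences of ap1 cal1 plants grown for 4 weeks and carrying 35S;LFY-GR, collected 4 h after treatment with 10 µM dexamethasone. LFY-GR is LFY joined to the steroid-binding part of the glucocorticoid receptor, so that the hormone moves it into the nucleus, and the 35S promoter drives it in nearly all cell types rather than where LFY is normally made. Every plant carried both mutations and the transgene and was treated, so no peak can be compared with an untreated, wild-type or transgene-free state, and the serum cannot tell LFY-GR from native LFY. Markers of the tissue could not be checked in a peak list. With 1 library of each kind there is no error between replicates and no test was made. Read depth is unknown, and intervals below are 95% Wilson intervals that cover counting error only.

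As background, LFY is known above all for activating other regulators, such as the floral homeotic genes, which then direct organ formation. Enzymes stand further down such cascades. They build and loosen the cell wall, lay down cutin and wax on the surface of the young organ, make hormones and run primary metabolism. Cytochromes P450 are haem enzymes that insert oxygen into fatty acids, hormones and defence compounds, and glycosyltransferases move sugars onto walls or small molecules. A peak next to such a gene records where DNA was recovered, not whether the gene was expressed.

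The peak score, a value of the authors' caller that is higher for a stronger peak, ranged from 53.41 to 1100.02 in the enzyme group. The median was 144.3 (95% interval from order statistics 112.2 to 264.5) for the 45 enzyme gene peaks and 128.7 (114.3 to 147.3) for the 484 other peaks. The 265 highest-scoring peaks of the list held 28 of the 45 enzyme gene peaks (62.2%, 47.6 to 74.9), against 237 of the 484 other peaks (49.0%, 44.5 to 53.4) and 50.1% of all peaks. The enzyme interval includes the share of all peaks. Among the 100 strongest peaks of the list were 12 of the enzyme gene peaks (26.7%), against 88 of the other peaks (18.2%) and 18.9% of all peaks, and 2 of the 12 were among the 20 strongest. Peaks of the enzyme genes ran from rank 9 to rank 510 of 529, and their highest score, 1100.02, was well under the 2952.29 of the strongest other peak.

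**Figure D1:**
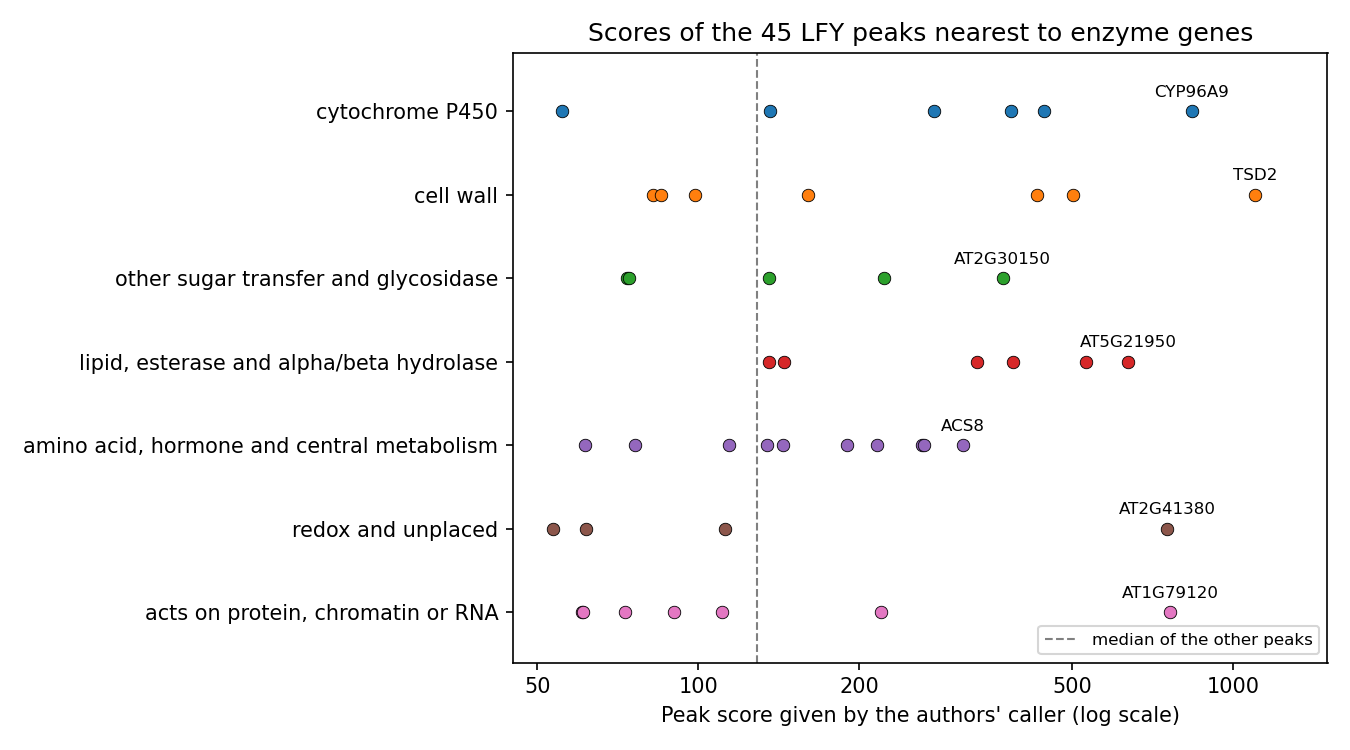
Score of each of the 45 enzyme gene peaks on a log axis, 1 point per peak, in rows by the role of the gene product, with the strongest gene of each row named and the median of the other peaks as a dashed line. All 6 peaks of the lipid, esterase and hydrolase row lie above the line, while 5 of the 7 peaks of the protein, chromatin or RNA row lie below it.

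The cell wall enzymes held the strongest peak of the group. TSD2 (AT1G78240, also QUA2), a putative pectin methyltransferase needed for cell adhesion, had an intergenic peak with a score of 1100.02, rank 9 of the list, on chromosome 1 from 29438375 to 29440441 (TAIR10). Its centre lay 2837 bp upstream of the transcription start site (TSS), and the peak was 2067 bp wide. No other peak of the list was closer to it than 196020 bp.

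CSLA02 (AT5G22740), which makes the glucomannan backbone, was the only one of the 44 loci with 2 peaks. The stronger one was intergenic, 2163 bp upstream of the TSS (score 502.33, rank 66, chromosome 5 from 7561700 to 7562773). The weaker one lay in intron 3 of its 8 introns, 2198 bp downstream (98.74, rank 324, chromosome 5 from 7557400 to 7558350). The peaks therefore flank the TSS at like distances and differ in score.

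Xylan and pectin genes followed at lower scores. GUT1 (AT5G61840, also IRX10L), a probable xylosyltransferase of the xylan backbone, had a promoter peak centred 237 bp upstream (429.23, rank 85, chromosome 5 from 24841624 to 24842730). GXMT1 (AT1G33800), which methylates the glucuronic acid side chains of xylan, had a peak in exon 2 of 2, 999 bp downstream (82.06, rank 377). The putative pectate lyase genes, whose products cleave pectin, had peaks inside the gene. AT1G67750 had one in its 3' UTR (160.33, rank 227, 1774 bp downstream) and AT5G48900 one in intron 2 (85.18, rank 366, 921 bp downstream). Of the 7 peaks of these 6 wall genes, 4 were among the 265 highest-scoring, against 50.1% of all peaks. The GUT1 peak was the only one annotated to a promoter, against 40.5% of all peaks. The wall genes were grouped after their scores were seen.

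GUT1 is the neighbour of LFY itself in the gene order. The next peak, 1079 bp away, is centred in the LFY gene (score 752.44, chromosome 5 from 24843810 to 24847841). That peak outscored the one at GUT1. The transgene, in both libraries, carries LFY coding sequence, and its part in either peak was not tested.

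Cytochrome P450 genes made up 6 of the 44 loci. Their scores ran from 55.56 to 835.44 with a median of 329.6, against a median of 128.7 for the other peaks. The other peaks include that of CYP714A1, a P450 gene left out by name. Of the 6, 5 were among the 265 highest-scoring peaks, against 50.1% of all peaks. CYP96A9 (AT4G39480) had the second strongest peak of the enzyme group, a promoter peak centred 364 bp upstream and 2261 bp wide (835.44, rank 20, chromosome 4 from 18360764 to 18363024). Its relative CYP96A1 (AT2G23180) had an intergenic peak 2016 bp upstream (275.76, rank 134). Both belong to the family that includes the mid-chain alkane hydroxylase of stem wax, and both peaks were centred upstream of the TSS, although the CYP96A9 peak was wide enough to cover it.

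The cutin hydroxylase genes had peaks of a different kind. CYP86A2 (AT4G00360), a fatty acid hydroxylase of cutin synthesis, had a peak in exon 2 of 2, 901 bp downstream of the TSS (383.51, rank 93, chromosome 4 from 160801 to 162538). CYP86A4 (AT1G01600), a paralogue that acts in the cutin of flowers, also had its peak in exon 2 of 2, 982 bp downstream (55.56, rank 491, chromosome 1 from 219049 to 220903). The peaks of the paralogues thus lay at like positions and stood far apart in rank. The CYP86A4 score was close to the lowest of the whole list, 50.03. The gene after CYP86A4 in the gene order is GPAT4, an acyltransferase gene of the same cutin pathway, and the nearest other peak lay 4909 bp away and was assigned to the aquaporin gene PIP1C (73.08).

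The remaining P450 genes were CYP705A24 (AT1G28430), with an intergenic peak 3912 bp downstream of the TSS (442.27, rank 82), and CYP81D1 (AT5G36220), with a peak in intron 1, 719 bp downstream (136.0, rank 256). At CYP705A24 the centre lay beyond the gene, and the neighbours in the gene order are HB-1 and HSL1. P450 genes have many close relatives, and how reads that match several copies were treated is not given in the sources used here.

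The P450 family was also counted over the whole gene table, by symbols that begin with CYP and a digit. The symbol was the only guide, so a gene of another family with such a symbol would be counted too. Of 241 such genes, 7 (2.90%, 1.41 to 5.87) were nearest to a peak, and of all 37899 nuclear genes 499 (1.32%) were. The seventh is CYP714A1, 1 of the loci left out by name. When a peak had to be centred within 1 kb, 5 of 241 (2.07%, 0.889 to 4.76) and 291 of all nuclear genes (0.768%) had one. Against protein-coding genes only, the shares were 3.06% (7 of 229, 1.49 to 6.17) and 1.75%. That interval includes the share of all protein-coding genes. The share of the family was above that of all genes in each count, which rests on 5 to 7 genes and was not tested.

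Other enzyme families held 1 gene with a peak or none. The cellulose synthase and cellulose synthase-like genes had 1 of 39 (2.56%, 0.454 to 13.2, CSLA02), the beta-glucosidase genes 1 of 40 (2.50%, 0.443 to 12.9, BGLU27) and the ACC synthase genes 1 of 12 (8.33%, 1.49 to 35.4, ACS8). None of 48 glutathione S-transferase genes, 30 xyloglucan endotransglucosylase genes, 21 ketoacyl-CoA synthase genes, 14 laccase genes or 10 pectin methylesterase genes had one. By the 3 counts that a count of 0 allows, these zeros leave room for shares of up to 6.25%, 10.0%, 14.3%, 21.4% and 30.0%. For UDP-glycosyltransferases the count by symbol was 0 of 58, but AT2G30150, described as one of them, had a peak and carries no such symbol, so this count is too low. Symbols cover only part of several families.

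**Figure D2:**
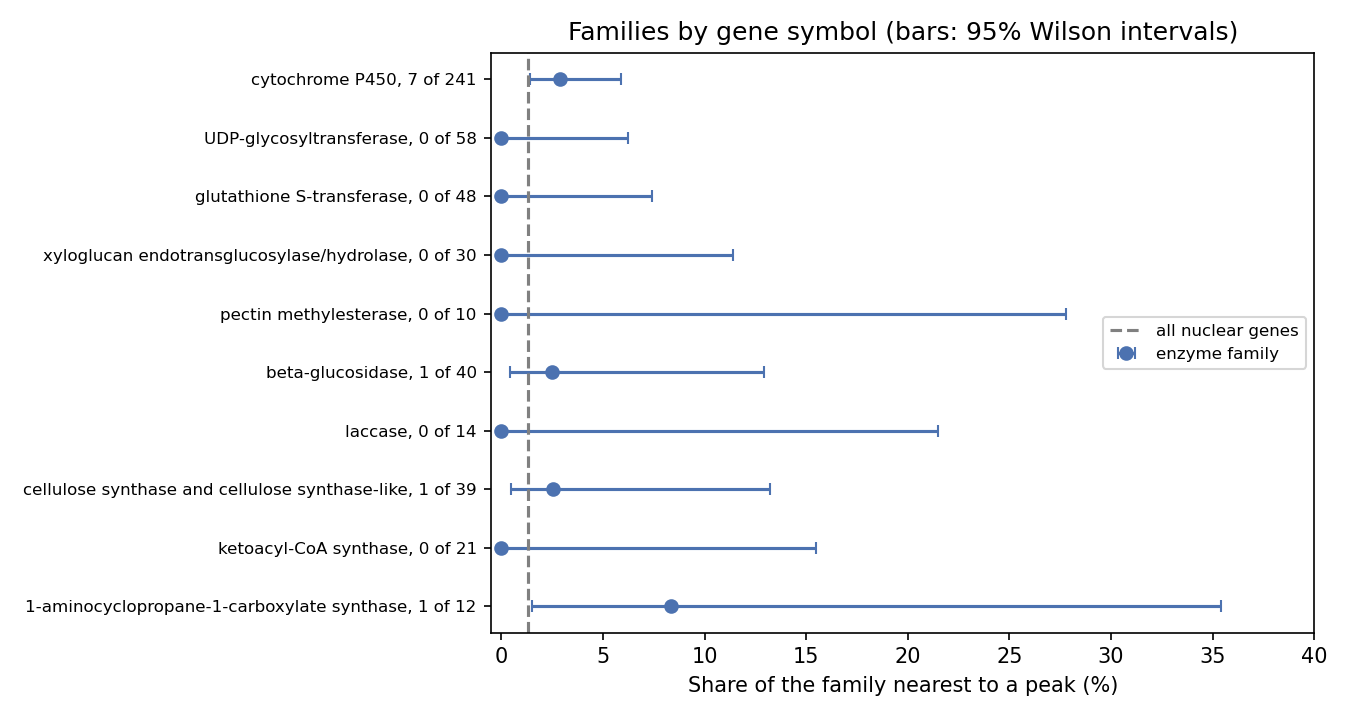
Share of each enzyme family, defined by gene symbol, that was nearest to a peak, with 95% Wilson intervals and the share of all nuclear genes (1.32%) as a dashed line. The P450 point lies at 2.90%, and 6 of the 10 families have none by symbol, among them the UDP-glycosyltransferases, whose count misses AT2G30150.

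Genes for sugar transfer outside the wall and for glycosidases had scores between 73.68 and 370.75. AT2G30150, which encodes a UDP-glycosyltransferase, had a peak in exon 1 centred 271 bp downstream of the TSS and covering it (370.75, rank 98, chromosome 2 from 12873949 to 12876005). The O-fucosyltransferase-like gene AT3G02250 had a peak in its 3' UTR, 3046 bp downstream (221.99, rank 173). BGLU27 (AT3G60120), a beta-glucosidase gene, had a promoter peak 426 bp upstream (135.74, rank 257).

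The last pair of this group had the lowest scores. AT2G22900, a putative glycosyltransferase gene, had a peak in its intron 1 (74.12, rank 408), and AT4G32120, a putative galactosyltransferase gene, had a promoter peak 499 bp upstream (73.68, rank 409). Only 1 of the 5 genes of this group thus ranked among the 100 strongest peaks, against 18.9% of all peaks.

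All 6 genes of lipid metabolism, esterases and alpha/beta hydrolases had peaks among the 265 highest-scoring, with a median score of 359.9, against 50.1% of all peaks. The role groups were drawn up after the scores were seen, so such counts describe the genes named and are no result about a group. AT5G21950, an alpha/beta fold hydrolase gene, had an intergenic peak 1142 bp upstream (636.09, rank 44, chromosome 5 from 7256344 to 7257829). The GDSL esterase/lipase genes, a class that includes enzymes of cutin assembly, had peaks downstream of the TSS. At AT3G50400 it lay at the termination site (530.87, rank 62, 1905 bp downstream), and at AT1G54010 in intron 2 (332.26, rank 109, 926 bp downstream).

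CDS5 (AT3G60620), which makes the activated diacylglycerol used for phospholipids, had a peak 3250 bp wide, centred in exon 3 of 7 at 959 bp downstream and wide enough to cover the TSS (387.63, rank 91, chromosome 3 from 22405741 to 22408990). Its neighbour in the gene order is HAM2, a shoot meristem regulator. MEE69 (AT4G37140), described as a putative inactive methylesterase, had the peak closest to a TSS of the whole group, 3 bp downstream (135.68, rank 258). The alpha/beta hydrolase gene AT5G02970 had its peak centre 230 bp downstream (144.26, rank 245), annotated to the promoter of the adjacent gene AT5G02960.

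Genes of amino acid, hormone and central metabolism had scores of at most 312.28. ACS8 (AT4G37770), which encodes an enzyme making the ethylene precursor ACC, had its peak at its termination site, 2661 bp downstream of the TSS (312.28, rank 118, chromosome 4 from 17754036 to 17755454). GDH2 (AT5G07440), a glutamate dehydrogenase gene, had a peak 1272 bp upstream at the termination site of AT5G07430 (264.49, rank 140). MAM1 (AT5G23010), which elongates methionine for glucosinolates, had an intergenic peak 3238 bp upstream (262.18, rank 142, chromosome 5 from 7699267 to 7700442).

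The MAM1 peak lay 1087 bp from a stronger one. That peak is in an exon of the neighbouring gene MYB37 (AT5G23000, also RAX1), a regulator of axillary meristems (802.27, rank 23). MYB37 had a second peak in its promoter (685.35, rank 33). All 3 peaks lie in a row on chromosome 5, and assignment to MAM1 rests on distance alone.

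IPT1 (AT1G68460), a cytokinin synthesis gene, had an intergenic peak 3360 bp downstream of its TSS (215.53, rank 178). SDH2-1 (AT3G27380), a subunit of respiratory complex II, had a promoter peak 200 bp upstream (189.16, rank 200). P5CS1 (AT2G39800), of proline synthesis, had an intergenic peak 3381 bp upstream (134.51, rank 263). TPS7 (AT1G06410), described as a putative trehalose-phosphate synthase, had a promoter peak 933 bp upstream (113.86, rank 295). The weakest peaks of these genes were at the CTP synthase-like gene AT1G30820, 4564 bp upstream (76.21, rank 395), and at the dihydrolipoyl dehydrogenase gene AT4G16155, 52 bp upstream (61.38, rank 455). Of these 10 genes of amino acid, hormone and central metabolism, 8 had their peak upstream of the TSS, against 57.1% of all peaks. The peak was within 1 kb of the TSS for 3 of the 10, against 56.5% of all peaks.

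MENG (AT1G23360), which methylates a precursor of phylloquinone, is a special case. Its peak was 1590 bp upstream (143.84, rank 247) but was centred in intron 3 of KNAT6 (AT1G23380), a homeobox gene of the shoot meristem. Here the enzyme gene was named only because its TSS was the nearest.

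The 4 genes of redox reactions or of unplaced function ranged from rank 26 to rank 510. AT2G41380, which encodes a methyltransferase-like protein with no substrate given, had an intergenic peak 1660 bp upstream (751.95, rank 26, chromosome 2 from 17249700 to 17250863). The next peak along, 8080 bp away, was in the promoter of BOP2 (300.77), an organ boundary gene. AT4G30250, described by its nucleotide-binding fold, had an intergenic peak 2565 bp upstream (112.22, rank 298). RBOH F (AT1G64060), an NADPH oxidase gene, had a promoter peak 812 bp upstream (61.67, rank 452), and PRXR1 (AT4G21960), a peroxidase gene, had the weakest peak of the group, in intron 3 (53.41, rank 510).

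The 7 genes whose products act on proteins, chromatin or RNA had a median score of 90.2. Of their peaks, 2 were among the 265 highest-scoring, against 50.1% of all peaks. AT1G79120, a ubiquitin carboxyl-terminal hydrolase gene, had a strong peak in intron 2, 2945 bp downstream (761.18, rank 24, chromosome 1 from 29764204 to 29767484), the widest of the enzyme group at 3281 bp. HAC5 (AT3G12980), a histone acetyltransferase gene, had a promoter peak 179 bp upstream (219.04, rank 175). The others were AT3G53680 (110.81, an acyltransferase with a PHD-type domain), AT1G69420 (90.15, an S-acyltransferase), ATMAK3 (AT2G38130, 72.97, N-terminal acetylation), AT1G09150 (60.71, a pseudouridine synthase domain protein) and SUVH7 (60.69, a histone methyltransferase). The ATMAK3 peak was annotated to the termination site of its neighbour AUX1, an auxin carrier gene.

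By the enzyme words of the descriptions, 13 classes had a member. The synthases had 7 loci and 7 peaks (median score 134.5), the sugar transferases 6 loci and 7 peaks (222.0), the P450 enzymes 6 loci (329.6) and the methyltransferases 5 loci (143.8). The hydrolases had 4 loci (390.2), the acyl- or acetyltransferases 4 (100.5), the esterases 3 (332.3) and the dehydrogenases 3 (189.2). The lyases had 2 loci, and glucosidases, oxidases, peroxidases and other transferases 1 each. Annotation to a promoter held for 2 of the 3 dehydrogenase peaks and 2 of the 4 acyl- or acetyltransferase peaks. It held for none of the 5 methyltransferase peaks and for 40.5% of all peaks. For the dehydrogenase gene AT4G16155 the promoter was that of the adjacent gene ATOEP16-2. With so few loci per class these are descriptions of single genes.

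The placement of the enzyme gene peaks was then set beside that of the other peaks. Promoters held 13 of 45 enzyme gene peaks (28.9%, 17.7 to 43.4) and 201 of 484 other peaks (41.5%, 37.2 to 46.0), and the intervals overlap. Introns held 8 of 45 (17.8%, 9.29 to 31.3) and 30 of 484 (6.20%, 4.38 to 8.71), and these intervals do not overlap. Of the 8, 7 were in the enzyme gene's own intron and 1 was the KNAT6 intron. The facing limits, 9.29 and 8.71, are close, so the gap rests on few peaks. The intron share was not recomputed under another choice. Intergenic sequence held 11 of 45 (24.4%, 14.2 to 38.7) and 110 of 484 (22.7%, 19.2 to 26.7), exons 6 of 45 (13.3%, 6.26 to 26.2) and 60 of 484 (12.4%, 9.75 to 15.6). Termination sites held 4 of 45 (8.89%, 3.51 to 20.7) and 71 of 484 (14.7%, 11.8 to 18.1). The 5' UTR held 1 enzyme gene peak, at AT1G69420, and 3' UTRs held 2. The 7 classes of place were looked at together, without a test.

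**Figure D3:**
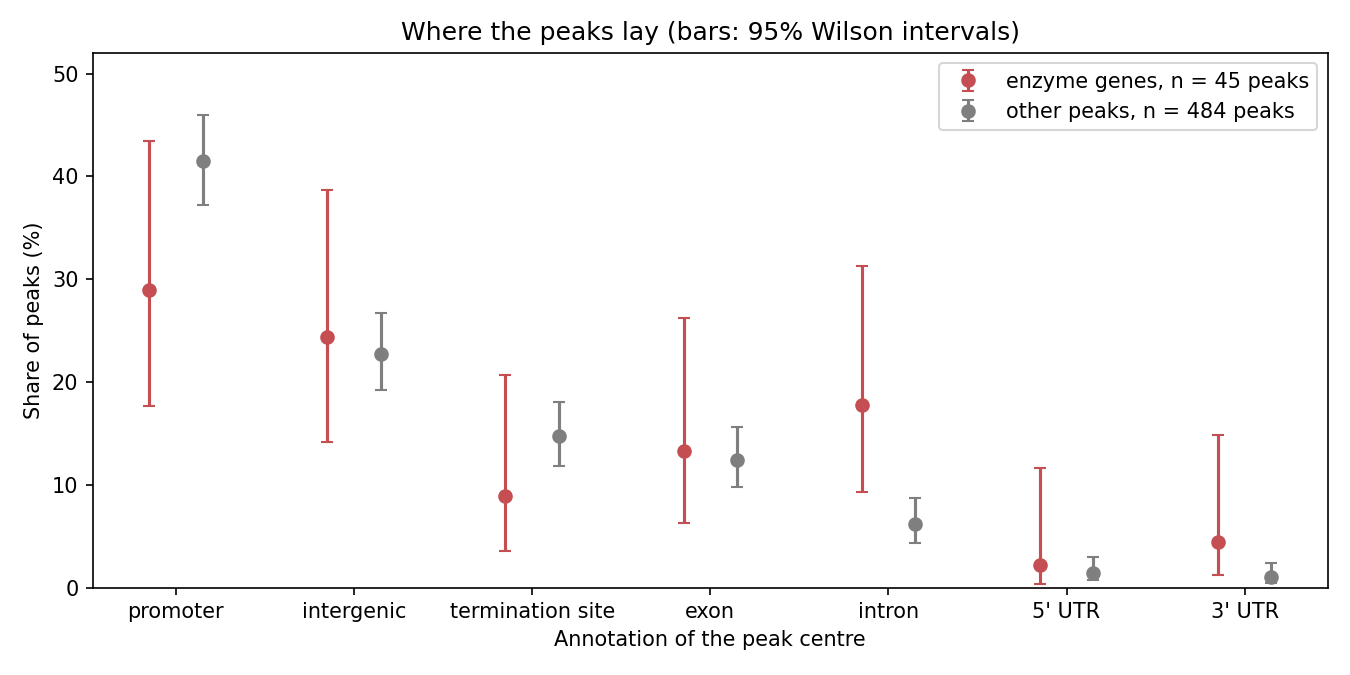
Share of the 45 enzyme gene peaks and of the 484 other peaks in each annotation class, as points with 95% Wilson intervals. The intron shares are 17.8% and 6.20% with intervals that do not overlap, and the promoter shares are 28.9% and 41.5% with intervals that do.

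Distances gave a like picture. The peak centre was upstream of the TSS for 22 of 45 enzyme gene peaks (48.9%, 35.0 to 63.0) and for 280 of 484 other peaks (57.9%, 53.4 to 62.2). It was within 1 kb of the TSS for 24 of 45 (53.3%, 39.1 to 67.1) and 275 of 484 (56.8%, 52.4 to 61.2), and within 3 kb for 38 of 45 (84.4%, 71.2 to 92.3) and 438 of 484 (90.5%, 87.6 to 92.8). Peaks spanned the TSS at 15 of 45 (33.3%, 21.4 to 47.9) and 226 of 484 (46.7%, 42.3 to 51.1). The median distance was 982 bp and 809 bp. Each pair of intervals overlaps. Width was also close, with medians of 1176 bp and 1166 bp.

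Peaks in an exon or intron of the enzyme gene itself were centred from 271 bp (AT2G30150) to 2945 bp (AT1G79120) downstream of the TSS. Of 13 peaks in an exon or intron of their own gene, 9 (69.2%, 42.4 to 87.3) were centred between 700 and 1000 bp downstream of the TSS, against 16 of 79 such other peaks (20.3%, 12.9 to 30.4). These 9 were CDS5, CYP86A2, AT1G54010, CYP81D1, AT5G48900, GXMT1, SUVH7, CYP86A4 and PRXR1. Their scores ran from 53.41 to 387.63. The window was chosen after the positions were seen, which the intervals do not cover. The shares therefore describe these peaks only, and gene length was not taken into account.

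**Figure D4:**
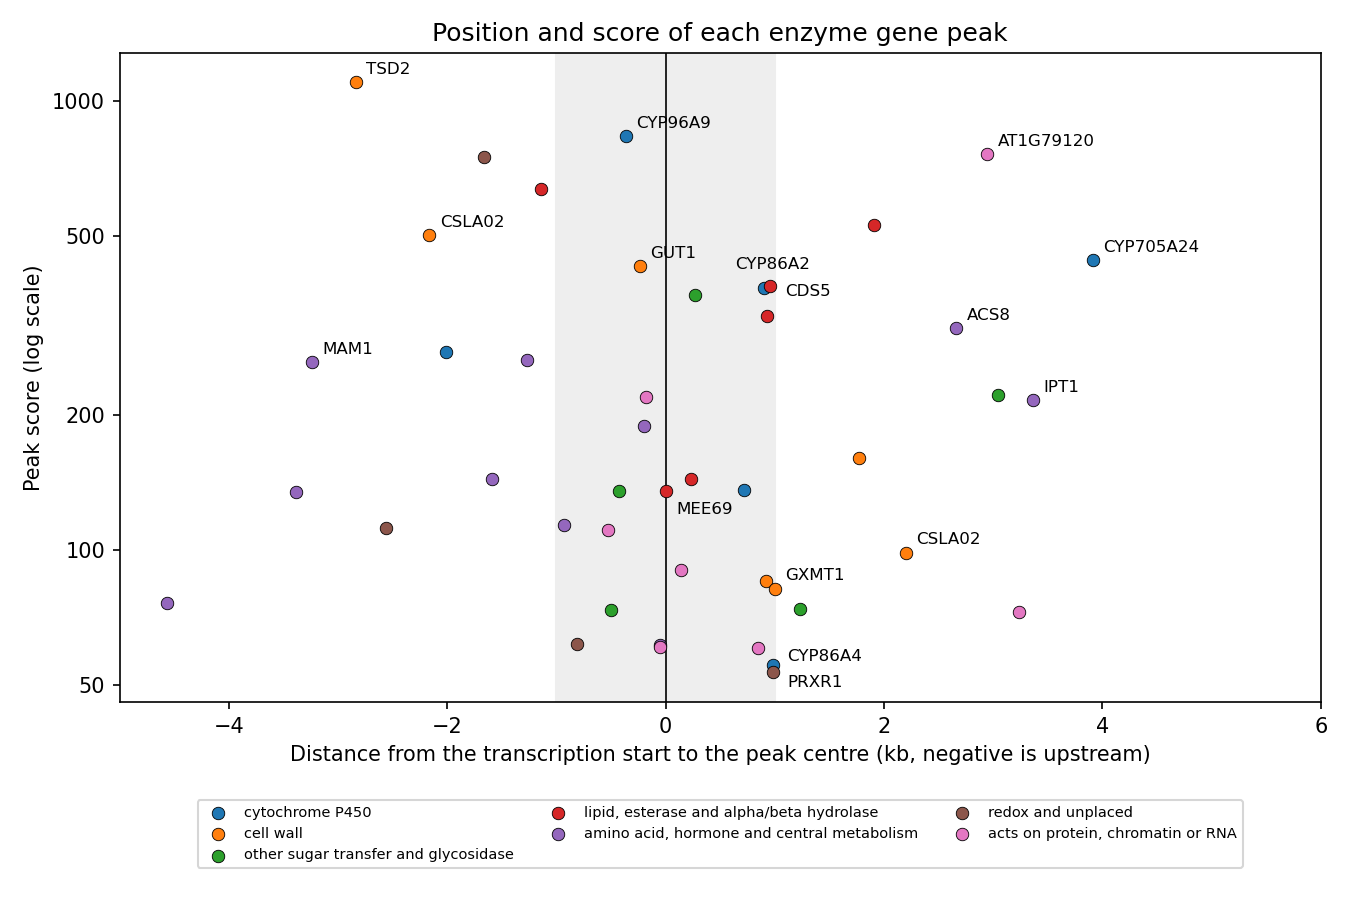
Distance of each enzyme gene peak from the TSS in kb (negative is upstream) against its score on a log axis, 1 point per peak, coloured by role, with the span of 1 kb on either side shaded. Of the 13 peaks in an exon or intron of their own gene, 9 stand in a column between 700 and 1000 bp downstream, with scores from 53.41 to 387.63. This window was chosen after the positions were seen.

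Assignment to an enzyme gene was not always to the gene in which the peak lay. Of the 45 peaks, 28 (62.2%) were annotated to a feature of the enzyme gene itself, 11 were intergenic and 6 (13.3%, 6.26 to 26.2) were annotated to a feature of another gene. Among the other peaks 71 of 484 (14.7%, 11.8 to 18.1) were of that last kind. The 6 genes were GDH2, AT5G02970, MENG, ATMAK3, AT4G16155 and AT1G09150. The AT4G16155 peak lay in the promoter of ATOEP16-2 and the AT1G09150 peak in that of SR30.

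Another peak lay within 5 kb of 8 of 45 (17.8%) enzyme gene peaks and of 87 of 484 (18.0%) other peaks, nearly the same share. Those 8 were the CSLA02 pair and the peaks at GUT1, MAM1, HAC5, AT1G67750, AT5G02970 and CYP86A4. The protein-coding gene on either side was itself nearest to a peak for 2 of 44 enzyme loci (4.55%, 1.26 to 15.1), and for 52 of 435 other loci (12.0%, 9.23 to 15.3). The 2 were MAM1, beside MYB37, and AT1G69420, beside AT1G69430. GUT1 was not counted, although the peak next to its own is centred in its neighbour LFY, because that peak was assigned to AT5G61865. The count thus depends on the assignment of peaks to genes. Chromosome 1 carried 15 of the 45 enzyme gene peaks, and the other chromosomes carried between 6 and 9 each. It also carried the most of the other peaks, 123 of 484.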

How the data were processed

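ChIP-seq was made from 1 LFY library and 1 input library of inflorescence tissue. Per the labels' protocols, sonication gave fragments of 200 to 500 bp. The authors deposited 1 peak list, in which the unit of the values used is the peak score of the authors' caller; no header states its scale, so it only ranks peaks. Positions and distances to the TSS are in bp, other values as deposited. The list is a HOMER annotation (tair10) of LFY peaks called against an unnamed contrast, per the file headers. The headers name the peaks LFYGR2 while the immunoprecipitated library is titled LFYGR, so the match of list and library was assumed. FastQC, MACS 1.4, HOMER and the TAIR10 build are named in the submitters' processing notes. The sources used here do not give the aligner or the calling threshold. No read counts entered, so depth and precision per peak are unknown.

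Members, enzyme classes, families and lists were chosen with earlier results of these data known, and the role groups after the members' values were seen. Of 512 loci, 499, including all 44 members, matched a RefSeq gene table (assembly TAIR10.1), used for symbols and gene order and none of its coordinates. Genes named by rule were those of the 20 strongest enzyme gene peaks, the strongest of each class, loci with 2 peaks, peaks within 50 bp of the TSS and family members; the rest are named to account for every member. Families were taken by symbol. Pectate lyases, class III peroxidases, GDSL enzymes and terpene synthases could not be taken so, and the planned search for LFY motifs needs sequence not used here. The functions were checked on simulated peaks. Python 3.11.15, SciPy 1.17.1, NumPy 2.4.6, pandas 2.3.3 and matplotlib 3.10.9 were used.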

Additional observations from a re-analysis of the deposited data

How the results depend on the processing

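No paired analysis was possible because the list is taken to come from 1 library against 1 contrast, and no replicate could be left out. Of 75 values recomputed under another choice, 63 stayed within the interval of the reported value, or for counts within 1.5 times, and 12 moved. The 63 include the families with no peak by symbol. Their share had to stay at 0% under either choice, so these values say nothing about stability. The number of loci was 28 among the 265 highest-scoring peaks, 14 among the 133 highest-scoring ones, 24 within 1 kb of a TSS and 82 with any description word ending in -ase other than kinases and phosphatases, with the same 9 loci left out, a choice made after seeing the data. Those wider words also raised the share of all peaks to 15.7% (reported 8.51%). The promoter share was 14.3% among the 133 highest-scoring peaks (38.7% of the other peaks there) and 54.2% within 1 kb (73.1%). The intergenic share within 1 kb was 0% in both groups of peaks. The median score was 294.0 among the 265 (other peaks 275.9) and 472.3 among the 133 highest-scoring peaks (499.0), so there the order of the groups turned. With only peaks within 1 kb, the share among the 265 was 50.0% (other peaks 45.8%), and with the wider words 54.2% (49.3%). The ACC synthase and cellulose synthase families had no gene with a peak within 1 kb. That share was not computed for subsets cut by score, nor the share within 1 kb under the limit of 1 kb, and the motif alternative was not run. Without read counts, small differences in score cannot be weighed.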

Other observations

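The enzyme words leave out other enzymes. A further 38 peaks had a description with another word ending in -ase, outside kinases and phosphatases. Their scores ran from 50.57 to 696.8, and the strongest were YUC4, an auxin synthesis gene (696.8), AT1G56030, a putative ubiquitin-protein ligase gene (689.72), HMA3, described as a putative inactive metal-transporting ATPase (610.34), RH39, an RNA helicase gene (538.57), and BCA6, a carbonic anhydrase gene (387.43). Of those lower in the list, DGL, a galactolipase gene, had a score of 225.16, ADT4 and ADT5, of phenylalanine synthesis, had 191.28 and 64.44, and LACS1, of wax and cutin synthesis, had 113.77. JAR1, which joins jasmonate to isoleucine, had 52.16, and AMY2, an amylase-like gene, had 90.75. These genes were chosen after their values were seen. None of the 45 enzyme gene peaks and 5 of the 484 other peaks were counted as lying in a transposon. Whether the label of each counted peak named a transposon was not checked. The counts are too small to tell the groups apart.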
